A study of Rattus norvegicus with 8 samples.

Results

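The BCL2 family holds the proteins that decide at the mitochondrial membrane whether a cell dies by apoptosis. The 10 members described here were every gene of a named set that the array's own gene names carried: the promoters of death Bax, Bak1, Bad, Bid, Bbc3 and Bcl2l11, and the inhibitors of death Bcl2, Bcl2l1, Bcl2l2 and Mcl1. They were chosen by name and not by a measured value, and they had 18 probes on 45 spots of each array. Of these probes 16 passed the filter on dim signal, and all 10 members were among the 23186 genes tested.

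The study followed male TRAP rats, heterozygous for a transgene that gives adenocarcinoma of the prostate; 36 of them were split into 3 groups at 3 weeks of age. The arrays held ventral prostate RNA of 4 control rats on basal diet and tap water (Control 102, 103, 104 and 106) and of 4 rats whose drinking water held telmisartan, which blocks type 1 receptors for angiotensin II, for 12 weeks (Telmisartan 302, 303, 305 and 306). The series text puts the arrays at a dose of 10 mg/kg/day; the treatment label of these rats names both 2 and 10 mg/kg/day, and the rats at the lower dose were not analysed here. All 8 TRAP rats are labelled as strain SD and 15 weeks old, and each prostate was set on its own array against normal ventral prostate of F344 rats aged 6 weeks. Transgene, strain, age and dye all differ between the channels, so a level over this reference is described and not tested. The transgene in TRAP rats is the simian virus T antigen driven by the probasin promoter, which acts in prostate epithelium, so controls and treated rats both carry it.

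Values are log2 ratios of the TRAP prostate (Cy5) over the reference (Cy3), where 0 is an equal level and 1 is 2-fold. Well above background in Cy5 were 64.7% to 76.8% of the spots in control rats and 59.2% to 68.1% in treated rats (exact permutation p = 0.0571, two-sided), and array-to-array correlations across genes ran from 0.83 to 0.96. All 9 luminal epithelial markers, Pbsn among them, were well above background on all 8 arrays. Each slide held 2 control and 2 treated rats, but controls always lay at positions 3 and 4 and treated rats at 1 and 2, so position and treatment cannot be told apart. No gene of the 23186 passed an adjusted p of 0.05 in either direction by limma, a share of 0%; 1117 genes, or 4.82%, had an unadjusted p under 0.05. The limma p-values set the difference between groups against the spread between these rats, pulled toward a value shared by all genes tested. Since each rat had its own array, that spread includes the spread between arrays.

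Bax and Bak1 are the effectors: once active, their proteins join into pores in the outer mitochondrial membrane and let cytochrome c out. Bcl2, Bcl2l1 (BCL-X), Bcl2l2 (BCL-W) and Mcl1 hold them in check, and the BH3-only proteins Bad, Bid, Bbc3 (PUMA) and Bcl2l11 (BIM) set them free by binding the inhibitors or by acting on the effectors. Normal ventral prostate of rodents is a classic tissue of apoptosis, since its luminal cells die when androgen is withdrawn.

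The probes that give the values of Bax, Bad, Bcl2l1 and Bcl2l2, with a dimmer Bcl2l1 probe added for contrast, are printed 5′ to 3′ as the scanner files give them. In the Bax probe the capitals mark the codons of the glycine and aspartate at the core of the BH3 stretch, by which family members bind each other. In the dimmer Bcl2l1 probe, A_44_P548065, the capitals mark the start codon. Of the Bad, Bcl2l2 and brighter Bcl2l1 probes the last 30 bases are shown. In the Bcl2l2 probe the capitals mark a polyadenylation signal, so that probe lies near the end of the message.
Bax, probe A_43_P11800: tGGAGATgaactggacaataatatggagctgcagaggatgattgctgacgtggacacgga
Bad, probe A_44_P991565: tgacgtacagcgttgagttccttccggtgc
Bcl2l1, probe A_44_P254238: ttattccttgtgaagatgatatactatttt
Bcl2l1, probe A_44_P548065: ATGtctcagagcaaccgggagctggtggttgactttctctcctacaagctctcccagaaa
Bcl2l2, probe A_44_P550346: aatatgtaatggtcgtattaaaAATAAAca
For Bid and Bcl2l11, each measured by a single dim probe, the whole probe is shown because the values of both genes rest on it. These have no capitals, since no motif was marked in them.
Bid, probe A_44_P550497: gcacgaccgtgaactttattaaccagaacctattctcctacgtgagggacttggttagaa
Bcl2l11, probe A_44_P508055: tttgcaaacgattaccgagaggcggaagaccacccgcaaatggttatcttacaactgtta

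In control TRAP prostates the ratios of all 6 promoters of death and of the inhibitors Bcl2l1 and Mcl1 were above 0 in all 4 rats. Those of Bcl2l2 were below 0 in all 4, and those of Bcl2 lay on both sides. Among the 8 members whose reference signal was well above background on all arrays, Bak1 had the highest mean level, 1.13 ± 0.28 or 2.2-fold over the reference, followed by Bbc3 at 0.92 ± 0.17 and Mcl1 at 0.88 ± 0.35 (log2, SD, n = 4). The ranges of these 3 over the control rats overlap those of their neighbours in that order. Within single rats, Bak1 read above Bbc3 and Mcl1 above Bcl2l1 in all 4 controls, while the order of Bbc3 and Mcl1 changed between rats. Bcl2l1 at 0.58 ± 0.20 and Bad at 0.53 ± 0.07 came next, then Bax at 0.36 ± 0.22, Bcl2 at -0.15 ± 0.37 and Bcl2l2 at -0.87 ± 0.13. The last step, from Bcl2 to Bcl2l2, is the only one between neighbours in which the ranges of the control rats do not overlap. Bid and Bcl2l11 were not ranked: in control rats the reference signal of Bid was well above background on 2 of 4 arrays and that of Bcl2l11 on 0. Bid read 1.03 ± 0.32, 1.41 with a normexp offset of 0 and 1.85 by the scanner software's ratio, and Bcl2l11 has only a lower bound, given with its values.

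No member reached 2-fold above or below the reference in all control rats, against 5.19% and 4.18% of all genes. Among all genes tested, the control level of Bak1 lay at percentile 92.6, Bbc3 at 90.1 and Mcl1 at 89.5, while Bcl2 lay at 32.7 and Bcl2l2 at 7.69. With each array centred on its median in place of loess, 6 members stood above 2-fold in all controls, against 28% of all genes, and Bcl2 and Bcl2l2 turned positive, at 0.40 and 0.41. The percentiles of the 4 highest were then 94.5 for Bak1, 92.8 for Bbc3, 92.7 for Mcl1 and 87.6 for Bcl2l1. With the scanner software's ratios 2 members stood above 2-fold in all controls, Bid and Bcl2l11, the members with a dim reference, against 10.4% of all genes. A level above or below 0 therefore depends on the normalization for Bcl2 and Bcl2l2. Cell type markers differed from the reference too. In control rats the means of the marker lists ran from -4.15 for skeletal muscle to 1.63 for T cells, with -0.46 for luminal epithelium (log2). The part of tissue make-up in the members' levels was not tested.

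**Figure D1:**
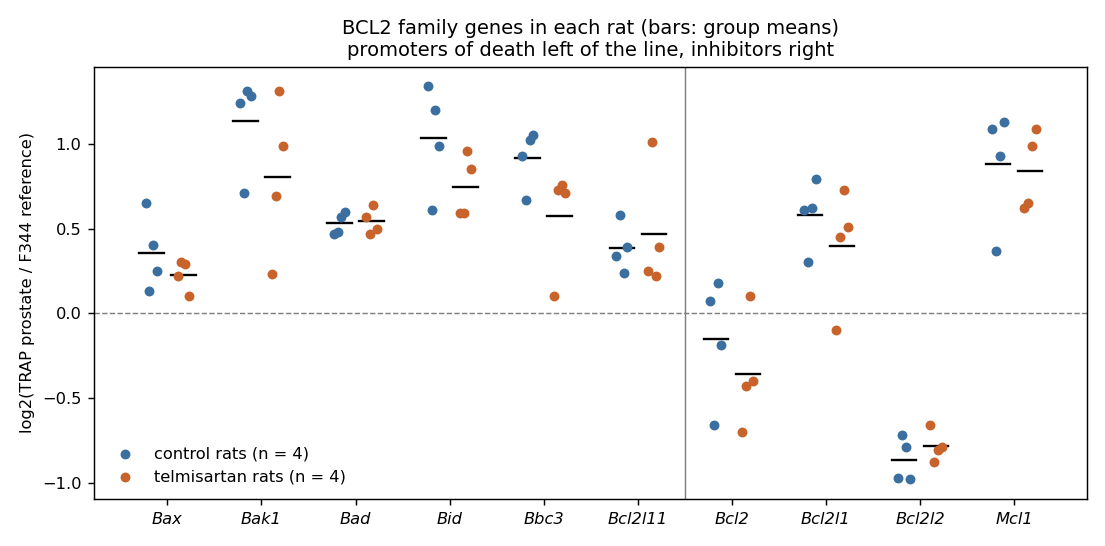
Each point is a rat, the vertical axis is the log2 ratio of the TRAP prostate over the F344 reference, and black bars are means of 4 rats. For each of the 10 genes the points of treated rats overlap those of control rats; Bcl2l2 is below 0 in all 8 rats. The reference signal of Bcl2l11 was not well above background on any array.

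Between treated and control rats no member passed the test. The smallest adjusted p of the family was 0.982 by limma, no member had an unadjusted p under 0.05 (4.82% of all genes did), and no member had groups that did not overlap, against 2.73% of all genes. Means were lower in treated rats for 7 of the 10 members, 4 of 6 promoters and 3 of 4 inhibitors, while 50.6% of all genes had a lower mean. The median difference was -0.209 over the promoters, -0.115 over the inhibitors and -0.002 over all genes (log2). Single rats weigh on these values. Without Telmisartan 302 the difference went from -0.33 to -0.14 for Bak1, from -0.34 to -0.18 for Bbc3, from -0.21 to -0.09 for Bcl2 and from -0.18 to -0.02 for Bcl2l1. The promoters' mean difference went from -0.17 to -0.09 and that of the inhibitors from -0.09 to -0.01. Without Control 103 the inhibitors' mean difference was -0.19, and Bcl2 differed by -0.38.

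**Figure D2:**
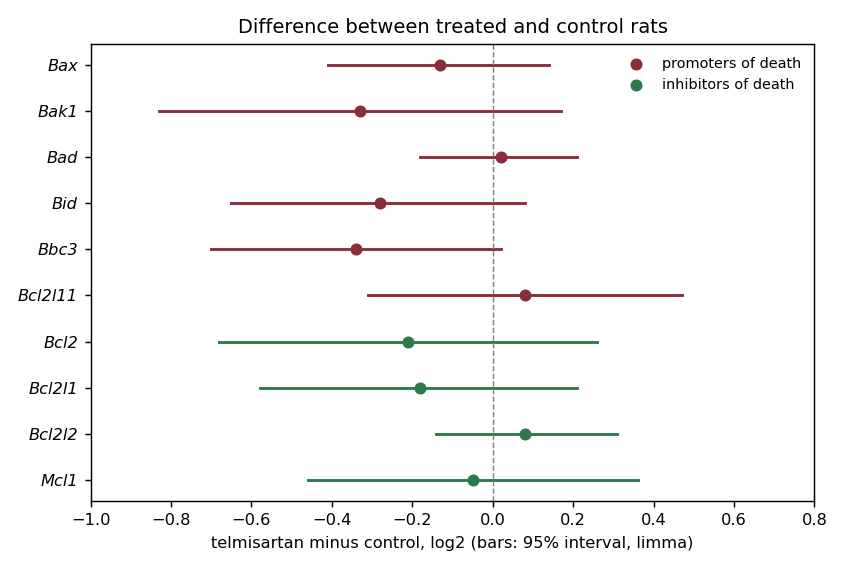
Points are the difference of telmisartan minus control on the log2 scale and bars the 95% interval of limma, with promoters of death in red and inhibitors in green. Every interval spans 0; the widest runs from -0.83 to 0.17, for Bak1.

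Among the effectors, Bax read 0.65, 0.13, 0.40 and 0.25 in the control rats (102, 103, 104 and 106) and 0.22, 0.30, 0.29 and 0.10 in the treated rats (302, 303, 305 and 306). Control 102 was the highest, and the other 7 rats lay between 0.10 and 0.40, with the groups mixed. The difference was -0.13 (SE 0.12, 95% interval -0.41 to 0.14, limma adjusted p = 0.982), the same on both slides. Bax was printed on 10 spots of each array, and these differed by an SD of 0.02 to 0.04 within an array, less than the SD of 0.22 between control rats and 0.09 between treated rats. On the other 2 member probes with 10 spots, both dim and not used for their genes, the SD between spots was the larger. Its median was 0.19 for Bcl2 and 0.16 for Bcl2l1, against at most 0.11 and 0.05 between rats. The SD between spots is that of single spots and the SD between rats that of means over the 10 spots, so the values are not alike in kind.

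Bak1, the other effector, read 1.24, 0.71, 1.31 and 1.28 in the control rats and 0.23, 0.69, 1.31 and 0.99 in the treated rats. Control 103 stood apart below the other controls, and Telmisartan 305 equalled the highest control. The fold of treated over control was 0.795 (95% interval 0.561 to 1.13; difference -0.33, SE 0.23, limma adjusted p = 0.982), with -0.52 on slide 1 and -0.14 on slide 2.

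Of the BH3-only genes, Bbc3 had the smallest unadjusted p of the family, 0.0627 by limma, and stood at rank 1422 of all genes. PUMA, its product, binds all the inhibitors described here, and the gene is a textbook target of p53. Control rats read 0.93, 0.67, 1.02 and 1.05, and treated rats 0.10, 0.73, 0.76 and 0.71. Telmisartan 302 lay far below the other treated rats, and Control 103 lay below 3 of the 4 treated rats. The fold was 0.79 (95% interval 0.615 to 1.02, difference -0.34, SE 0.16, limma adjusted p = 0.982), with -0.38 and -0.30 on the slides.

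Bid, whose protein links death receptors to mitochondria after caspase-8 cuts it, read 1.34, 0.61, 1.20 and 0.99 in control rats and 0.59, 0.59, 0.96 and 0.85 in treated rats. Control 103 sat among the low treated rats. The fold was 0.821 (95% interval 0.636 to 1.06, difference -0.28, SE 0.16, limma adjusted p = 0.982). The Bid probe was well above background in the reference channel on 3 of the 8 arrays, and with the log ratios of the scanner software the group means were equal, 1.85 ± 0.52 and 1.85 ± 0.23 (SD, n = 4).

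Bad, whose protein binds BCL-2 and BCL-X unless it is phosphorylated, varied least. Control rats read 0.47, 0.48, 0.57 and 0.60 and treated rats 0.57, 0.47, 0.64 and 0.50. The groups cover almost the same range, and the difference of 0.02 had a 95% interval of -0.18 to 0.21, so a change beyond a fold of 0.883 or 1.16 lies outside that interval. The second Bad probe gave a difference of 0.02 too, but with a larger SE, 0.12 against 0.09. Its SD in treated rats was 0.22, with Telmisartan 302 at 0.85.

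Bcl2l11 read 0.34, 0.58, 0.24 and 0.39 in control rats and 0.25, 1.01, 0.22 and 0.39 in treated rats. Telmisartan 303 alone was high, and without it the difference of 0.08 (SE 0.17, limma adjusted p = 0.997) became -0.10. In the reference channel this probe was not well above background on any array, so its control level is only bounded. With the main processing this bound is 1.28-fold over the reference, or 0.35 in log2. It sets the mean of the TRAP channel against the higher, per array, of the lowest signal well above background and the probe's own signal. The bound holds for that processing only: the control level read 0.24 without background correction and 0.19 with median centring (log2). With the scanner software's log ratios, which fill such spots with surrogate values, control rats read 2.22, 2.62, 1.91 and 1.98 and treated rats 0.64, 1.91, 1.42 and 0.72. That difference of -1.01 did not pass either (limma adjusted p = 0.83), and the size and the sign of the Bcl2l11 difference depend on the processing.

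Among the inhibitors, Mcl1, a short-lived protein that guards many cell types, read 1.09, 0.37, 0.93 and 1.13 in control rats and 0.62, 0.65, 0.99 and 1.09 in treated rats. Control 103 was the lowest of all 8. The difference was -0.05 (SE 0.18, 95% interval -0.46 to 0.36, limma adjusted p = 0.997). It changed sign without Control 102, Control 106, Telmisartan 302 or Telmisartan 303, at 0.02 to 0.04, and on the other probe of the gene, at 0.02.

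Bcl2l1 codes for the long inhibitor BCL-XL and, by splicing, for a short form that promotes death. The probes of the gene were not assigned to these forms here, so the values are not read by form. Control rats read 0.61, 0.30, 0.62 and 0.79 and treated rats -0.10, 0.45, 0.73 and 0.51. Telmisartan 302 was the only rat below the reference. The fold was 0.88 (95% interval 0.669 to 1.16, difference -0.18, SE 0.18, limma adjusted p = 0.982).

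Bcl2, the founding member of the family, read 0.07, -0.66, 0.18 and -0.19 in control rats and -0.70, -0.43, 0.10 and -0.40 in treated rats. Control 103 and Telmisartan 302 were both low. The difference was -0.21 (SE 0.21, 95% interval -0.68 to 0.26, limma adjusted p = 0.982). These values come from a probe that the scanner files tie to a Bcl-2 beta message; the probe tied to the reference Bcl2 message gave 0.01, but it was well above background on 4 of 8 arrays in Cy5 and on none in the reference, so it gives no measured level.

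Bcl2l2 was the one member below the reference in all 8 rats, as were 25.7% of all genes. Above it in all 8 were 7 members, as were 30.8% of all genes, though Bcl2l11, among the 7, has a reference too dim to measure. BCL-W, the product of Bcl2l2, is an inhibitor best known from the testis and nervous system. Control rats read -0.97, -0.72, -0.79 and -0.98, a mean 0.549 times the reference, and treated rats -0.66, -0.88, -0.81 and -0.79. The difference was 0.08 (SE 0.10, 95% interval -0.14 to 0.31, limma adjusted p = 0.988), and the second probe gave control and treated means of -0.89 and -0.85.

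The probes of a gene did not always read alike. The brightest Bcl2l1 probe gave a control mean of 0.58 and probe A_42_P623909 one of 0.28, with differences of treated minus control of -0.18 and -0.15. The Bcl2l1 probe at the start codon had no reference signal well above background, so its control level is only bounded. With the main processing this bound, a mean over the control rats, is 1.06-fold over the reference. Single control rats read -0.06, -0.02, 0.19 and 0.32, so the probe does not place the gene above the reference. A further Bcl2l1 probe, on 10 spots, was not well above background on any array in either channel and gives no level. Both Bad probes and both Bcl2l2 probes lay within 0.04 of each other in their group differences. A probe named Mcl1 whose description in the scanner files is of another, hypothetical protein was not well above background on any array and is not read as Mcl1.

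**Figure D3:**
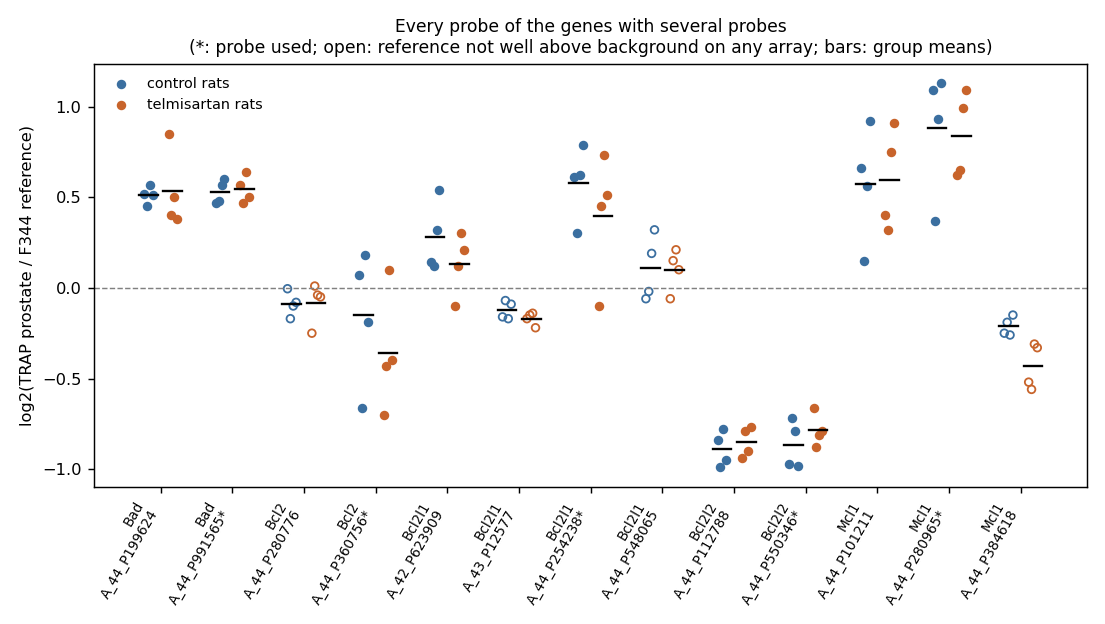
Points are rats, the vertical axis is the log2 ratio over the reference, bars are means of 4 rats, an asterisk marks the probe used for the gene and open points a probe whose reference signal was not well above background on any array, so that its ratio is no measured level. The filled Bcl2l1 probes have control means of 0.28 and 0.58, and both Bcl2l2 probes sit between -0.99 and -0.66.

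The means of promoters and of inhibitors were set side by side in each rat. The mean of the 6 promoters was 0.83, 0.53, 0.79 and 0.76 in control rats and 0.33, 0.63, 0.70 and 0.59 in treated rats. This mean includes the ratios of Bid and Bcl2l11, which have a dim reference. Its difference between groups was -0.17, and -0.28 with the scanner software's ratios. The mean of the 4 inhibitors was 0.20, -0.18, 0.24 and 0.19 in control rats and -0.21, -0.05, 0.25 and 0.10 in treated rats. Control 103 was the lowest control and Telmisartan 302 the lowest treated rat in both means. Promoters minus inhibitors, a ratio within each rat, had a mean of 0.62 ± 0.07 in controls and 0.54 ± 0.10 under treatment (SD, n = 4), with ranges that overlap. Between single genes, the closest pairs over the 8 rats joined promoters with inhibitors: Bak1 with Bcl2l1 at a Pearson r of 0.95, Bbc3 with Bcl2l1 at 0.92, and Bak1 with Bcl2 and Bid with Bcl2 at 0.89 each; Bak1 with Bbc3 reached 0.90. Bcl2l2 ran the other way, at -0.77 with Bcl2l1 and -0.76 with Bbc3. Bcl2l11 followed no other member, with r from -0.64 with Bad to 0.03 with Bbc3, and apart from Bcl2l11 the values of Bad lay between -0.11 and 0.37. These pair values are descriptions over 8 points that share arrays.

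RNA came from whole prostate, in which fewer cells of a type and less RNA per cell cannot be told apart, so markers of immune cells were set beside the family. Of 28 listed markers of T cells, macrophages and MHC class II, 26 were measured and 24 had a lower mean in treated rats, none of them past the test; Emr1 and RT1-DMb were not among the genes tested. Their mean was 1.97, 0.70, 1.87 and 1.79 in control rats and 0.34, 1.15, 1.75 and 1.19 in treated rats. T cell markers (10 of 10 lower) ranged from 0.61 to 2.10 in control and 0.30 to 1.82 in treated rats. Macrophage markers (7 of 9 lower) ranged from 0.94 to 1.76 and from 0.60 to 1.69, and MHC class II genes (7 of 7 lower) from 0.50 to 2.06 and from 0.08 to 1.72. The defining markers Cd3d, Cd8a, Cd68 and Cd74 were well above background on all 8 arrays. Other markers ran the opposite way: smooth muscle markers had higher means in treated rats for 5 of 5 measured (control -1.56 to -1.10, treated -1.30 to -0.73) and basal epithelial markers for 5 of 6 (control -1.60 to -0.66, treated -1.05 to -0.48), none past the test. Their part in the values of the family was not tested.

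Of the 10 members, 6 had, on the probe used, a Pearson r of 0.7 or more with this immune marker mean, against 11.5% of all genes. The other bright Mcl1 probe gave 0.62, under 0.7, so this count depends on the probe. Other Bcl2l1 probes gave 0.75 (A_42_P623909), 0.54 (the start codon probe) and -0.05 (the probe not well above background on any array). The dim Bcl2 probe gave 0.70. Bak1 had an r of 0.95 (exact permutation p = 0.00171; Spearman rho 0.76, exact p = 0.0368), Bcl2 0.94 (p = 0.000645; rho 0.88, p = 0.00724, both exact) and Bcl2l1 0.92 (p = 0.00104; rho 0.79, p = 0.0279, both exact). For Bid r was 0.89 (exact permutation p = 0.00347; rho 0.98, exact p = 0.000397), for Bbc3 0.88 (p = 0.000595; rho 0.88, p = 0.00724, both exact) and for Mcl1 0.79 (p = 0.0225; rho 0.76, p = 0.0368, both exact). The Bid values carry a dim reference, well above background on 3 of the 8 arrays. By the scanner software's ratios Bid read 2.15 in Telmisartan 302, the rat lowest in the marker mean. The other treated rats then read 1.59, 1.81 and 1.86, so the order of the rats for Bid depends on the processing. The tests are two-sided over 8 rats, and the p-values are not adjusted for the 10 relations computed. Without Telmisartan 302 and Control 103, the rats farthest from the median of the markers, r was 0.90 for Bak1, 0.89 for Bid and Bcl2, 0.77 for Bbc3, 0.74 for Bcl2l1 and 0.51 for Mcl1, so that the relation of Mcl1 rests largely on these rats. With slide means removed the 6 values ran from 0.68 for Mcl1 to 0.95 for Bak1; a slide holds too few rats for a value of its own.

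The other members differed. Bax had an r of 0.65 (exact permutation p = 0.0724; rho 0.69, exact p = 0.0694) and Bad of 0.24 (p = 0.543; rho 0.05, p = 0.935, both exact). Bcl2l11 gave -0.25 (exact permutation p = 0.593; rho -0.33, exact p = 0.428). Without the 2 farthest rats these were 0.69, 0.45 and -0.70. Bcl2l2 gave -0.77 (exact permutation p = 0.0271; rho -0.64, exact p = 0.0962), which was -0.35 without these rats, and its second probe gave 0.38, so its inverse relation was not shared by both probes. For Bad the second probe gave -0.37. The values of Bcl2l11 carry the dim reference named above.

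**Figure D4:**
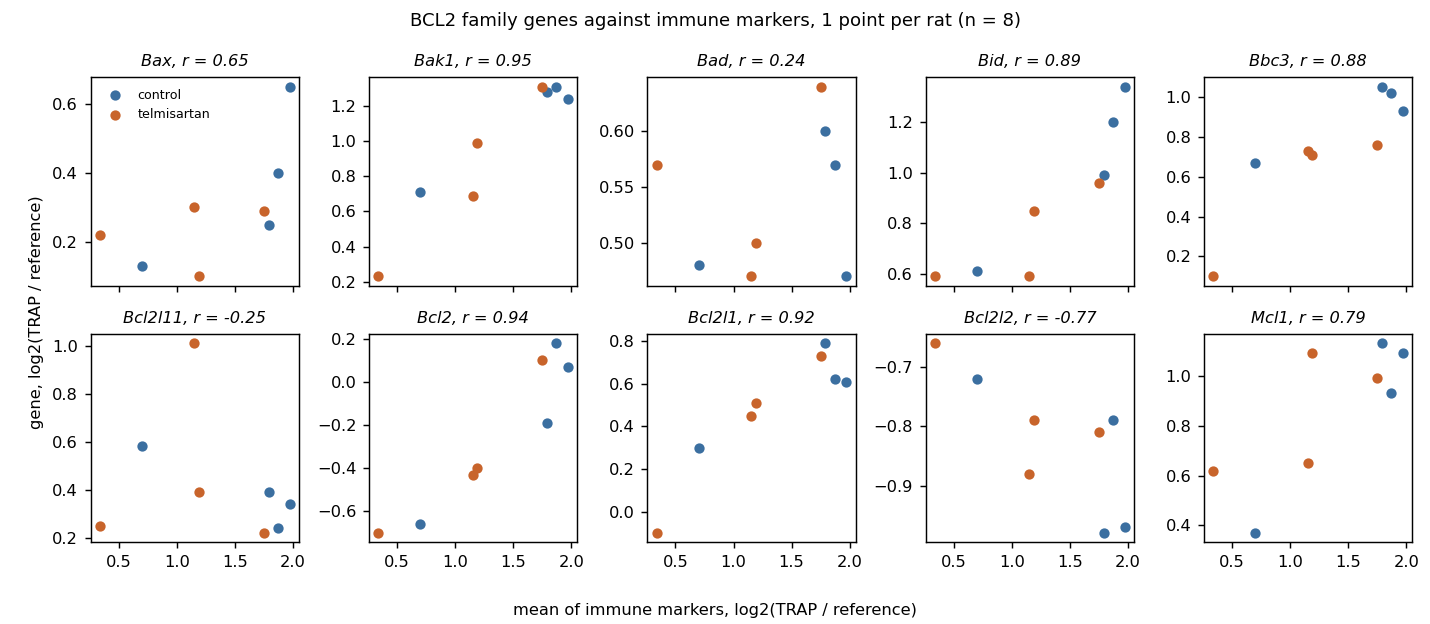
Each panel plots 1 member (vertical, log2 ratio over the reference) against the mean of the immune markers (horizontal, log2 ratio), with 1 point per rat and control rats in blue. Bak1, Bid, Bbc3, Bcl2 and Bcl2l1 rise along the axis across the 8 rats, with Telmisartan 302 lowest on it at 0.34; Bad and Bcl2l11 show no such line.

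With the immune marker mean as a covariate, a fit added after the data were seen, the treated minus control differences were -0.04 for Bak1, -0.10 for Bid, -0.16 for Bbc3, 0.06 for Bcl2 and 0.03 for Bcl2l1. Their values without it were -0.33, -0.28, -0.34, -0.21 and -0.18. In Mcl1 the difference went from -0.05 to 0.16, and no member passed with the covariate (smallest limma adjusted p = 0.816). The marker mean came from the same arrays and had itself a lower group mean in treated rats, 1.11 against 1.58 in control rats (log2). This fit is therefore a description and no test of why the differences changed. The part of immune cells in these values was not tested.

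By likeness over the 8 rats, the genes closest to the promoters' mean were Il18bp (r = 0.990), which codes for a decoy that binds interleukin-18, Bcl2a1 (0.989) and the chemokine receptor Cxcr4 (0.988). Closest to the inhibitors' mean were Cyb561a3 (0.994), Tmem229b (0.993) and Atp1b3 (0.990), a subunit of the sodium pump. They were picked as the highest of all other genes with a symbol and describe the pattern only.

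Beyond the 10 members, 14 of 18 other listed BCL2 family genes were measured, 7 lower and 7 higher in treated rats with none past the test. Bcl2a1, an inhibitor made mostly in blood cells, had the widest spread: control rats ran from 0.94 to 3.00 and treated rats from 0.12 to 2.34, with means of 2.31 ± 0.94 and 1.41 ± 0.95 (difference -0.90, SE 0.53, limma adjusted p = 0.982). Bcl2l12, Bcl2l15 and the BH3-only gene Bmf differed by -0.14, -0.11 and -0.11.

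Of 18 listed regulators of BCL2 proteins 14 were measured, 10 lower and 4 higher, again with none past the test. The smallest unadjusted p-values were those of Ddit3, a stress-induced factor that raises BIM (difference -0.37), Gzmb, the killer-cell protease that can cut BID (-1.34, SE 0.79), the kinase Pim1, which phosphorylates BAD (-0.50), and Casp8 (-0.18). Control means of Gzmb and Pim1 were 2.83 ± 1.37 and 1.29 ± 0.65 (SD, n = 4). The size of the Gzmb difference depends on the processing, at -0.87 with its probes averaged and -2.04 in Cy5 alone.

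All 17 listed mitochondrial effectors were measured, 12 lower and 5 higher, and none passed. Cycs, the cytochrome c that BAX and BAK pores release, ran from 0.31 to 0.54 in control rats and from 0.08 to 0.24 in treated rats, with no overlap, as 1.23% of all genes did in that direction. Its difference was -0.27 (SE 0.09, unadjusted p = 0.0169, limma adjusted p = 0.982). These Cycs values are those of its brightest probe. The difference was -0.19 with its probes averaged, -0.15 with median centring and -0.30 without Telmisartan 302. Apaf1, which builds the apoptosome around cytochrome c, differed by -0.24 (SE 0.11, limma adjusted p = 0.982).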

How the data were processed

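RNA of 8 ventral prostates was hybridised to 2-colour Agilent arrays, 1 per TRAP rat and with no dye swap. The sources used here do not say whether the reference was 1 RNA pool. Per the file headers, the software was Agilent Feature Extraction 9.1. Its deposited output gives uncorrected mean and local background intensity per channel, and a background-subtracted, dye-normalized log10 ratio of Cy5 over Cy3 by the software. The deposited series matrix holds the same log10 ratios (largest difference 0.005); both served as alternatives.

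From the deposited intensities, log2 ratios were computed with limma 3.58.1 in R 4.3.3 and version 1.17.8 of data.table: normexp at an offset of 50, then loess within arrays with control spots at weight 0. Control and outlier spots were left out, saturated spots kept, and spots of a probe averaged. Kept were the 27541 of 41012 probes whose Cy5 signal was well above background on 4 or more arrays, and each gene took its brightest probe. Groups were compared with lmFit and eBayes, two-sided, at a threshold of 0.05 after Benjamini-Hochberg adjustment across the 23186 genes; the fit was tested on simulated data. Names came from the RefSeq gene table of GRCr8: 10735 probes matched by accession, 5577 by current and 3730 by older symbol, and 20970 kept the file's name.

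Named genes are all 10 members with every probe, the 4 genes of each pathway list with the smallest unadjusted p, and the 3 genes most like the promoters' and the inhibitors' mean. Some genes that this rule takes are not reported here. The members and lists were chosen with earlier results of these data known, so no p is given for a score over members and none adjusted over members alone, although such an adjustment of the marker correlations had been planned. Alternatives covered background correction, normalization, the scanner ratios, Cy5 alone, the dim filter, probe choice, slide, variance model, array weights and each rat left out. Added once the data had been seen were the marker covariate and a fit without Control 103 and Telmisartan 302.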

Additional observations from a re-analysis of the deposited data

Results flagged for a closer look

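In 20 groups tested, 10 genes in 2 groups of 4 rats, 2 held a rat that stood apart from the others, where chance gives about 1 in 20 groups. Bak1 in Control 103 read 0.71, and the nearest other control read 1.24; this gap is 0.887 of the group's whole range and lies above Dixon's critical value for 4 samples. Bbc3 in Telmisartan 302 read 0.10, and the nearest other treated rat read 0.71, a gap of 0.922 of the range. These rats were also the lowest of their groups in the immune marker mean, at 0.70 and 0.34. Without both, the limma differences kept their sign for 9 of the 10 members, all but Bad at -0.01.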

How the results depend on the processing

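No member passed an adjusted p of 0.05 by limma in any alternative run. Bax, Bak1, Bbc3 and Bcl2l2 kept the sign of their difference throughout, from -0.21 to -0.04, -0.52 to -0.04, -0.42 to -0.16 and 0.01 to 0.17. With median centring Bcl2l11 was -0.06 and Mcl1 0.05, and 6 members stood above 2-fold. With the scanner log ratio and with the series matrix, Bcl2l11 was -1.01, Bid 0.0049 and 0.0045, promoters minus inhibitors -0.18, and 2 members, Bid and Bcl2l11, stood above 2-fold. In Cy5 alone Bcl2l11 was -0.12 and Bcl2l12 0.02. Array weights gave Bad -0.02. Slide 2 alone gave Bad -0.02, Bcl2l11 -0.01 and Mcl1 0.01. The marker covariate gave Bcl2 0.06, Bcl2l1 0.03 and Mcl1 0.16. Other probes gave Bcl2 0.01 (A_44_P280776) and Mcl1 0.02 (A_44_P101211). Without Control 103 and Telmisartan 302 together Bad was -0.01.

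With each rat left out, Bad was -0.0033 without Control 102, -0.0025 without Control 103 and -0.01 without Telmisartan 305. Mcl1 ran from -0.22 to 0.04: it was 0.02 without Control 102, 0.04 without Control 106, 0.03 without Telmisartan 302 and 0.02 without Telmisartan 303, and Bcl2l11 ran from -0.10, without Telmisartan 303, to 0.16, and was 0.22 without Control 103 and Telmisartan 302. Bax ran from -0.21 (without Control 103) to -0.04 (Control 102), Bak1 from -0.50 (Telmisartan 305) to -0.14 (Telmisartan 302), Bid from -0.43 (Control 103) to -0.18 (Control 102), Bbc3 from -0.42 (Control 103) to -0.18, Bcl2 from -0.38 (Control 103) to -0.09 and Bcl2l1 from -0.29 (Telmisartan 305) to -0.02, these last 3 without Telmisartan 302. Bcl2a1 was -0.47 without Telmisartan 302. Members above 2-fold in all controls numbered 0 to 1, and 1, Bak1, without Control 103. Fewer rats had to pass in that setting, and the share of all genes was not computed for it, so the count is not read further. Genes called higher numbered 0 to 1, with 1 without Control 102, and genes called lower 0 to 1, with 1 without Telmisartan 303; none was a member. The causes were not tested. No paired analysis was possible because the groups share no replicate numbers.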
